A study of Mus musculus with 4 samples.

Results

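Notch signalling was followed in *Hnrnpl* knockdown myoblasts through 10 genes: the receptors *Notch1*, *Notch2* and *Notch3*, the ligands *Jag1* and *Jag2*, the DNA-binding effector *Rbpj*, and the Hes and Hey family genes *Hes1*, *Hes6*, *Hey1* and *Heyl*. They were taken by name from the 56748 genes of the count tables, each found by its Ensembl identifier. Of the 10 genes, 8 had at least 1 read and 6 passed the filter on low counts. The ligand *Jag2*, which passed that filter through its scrambled libraries alone, and the target *Hes1* were called lower in the knockdown by edgeR, calls that were lost in DESeq2 and when scrambled 2, knockdown 1 or knockdown 2 was left out. *Jag1* and *Hey1* had their fewest reads in the knockdown libraries, and *Notch2* and *Rbpj* had higher normalized counts in both. In the edgeR fit reported here *Jag1*, *Notch2* and *Rbpj* missed the threshold, and *Hey1* did not pass the filter. *Notch2* passed with the replicate block (edgeR adjusted p = 0.0460). Without the filter the edgeR adjusted p was 0.0106 for *Jag1*, 0.0389 for *Notch2* and 0.00365 for *Hey1*, the last at a mean count under 10. DESeq2 called none of these genes.

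Notch is a receptor that is cut when a ligand such as JAG1 or JAG2 on a neighbouring cell binds it, which frees its intracellular domain. This domain enters the nucleus, joins RBPJ and Mastermind-like proteins on DNA, and switches on genes of the Hes and Hey families, whose products are transcriptional repressors. In the myogenic lineage, Notch activity is known for keeping muscle stem cells and myoblasts from differentiating. HnRNP L, the product of *Hnrnpl*, is an RNA-binding protein that regulates splicing and favours CA-rich RNA.

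RNA was read directly with nanopores from 2 groups of C2C12 cells, an established mouse myoblast line listed as wild type. The scrambled group was transfected with a scrambled shRNA, and the knockdown group with a cocktail of shRNAs against *Hnrnpl*. In both, cells with the eGFP reporter of the plasmid were isolated, selected with puromycin and grown as myoblasts in serum-rich medium. Each group had 2 libraries, which came from passages of 1 selected stable line, so that p-values measured the spread between passages and not between independent knockdowns. The labels name 2 batches, each with 1 scrambled and 1 knockdown library, and library 1 of each group belonged to batch 1. Values of a group are given in the order of library 1 and library 2. The files held between 1229424 and 1676911 counted reads per library, and a count of 0 allowed up to 1.8 to 2.5 CPM (counts scaled to a fixed library total, at 3 counts), a limit that covers counting error only. The targeted gene *Hnrnpl* had 358 and 656 reads in the scrambled libraries, against 242 and 258 in the knockdown libraries. Its log2 fold change, knockdown against scrambled, was -0.78 with a standard error (SE) of 0.17 (adjusted p = 0.0112 in the edgeR quasi-likelihood test with Benjamini-Hochberg adjustment). Without scrambled 2 the log2 fold change of *Hnrnpl* was -0.47. Its adjusted p was 0.164 without scrambled 2, 0.283 without knockdown 1, and 0.0567 and 0.0670 in the DESeq2 Wald and likelihood-ratio tests with the parametric fit.

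The cells had few or no reads of differentiated muscle genes. Of 8 such genes, 6 (*Myog*, *Mymk*, *Mymx*, *Myh3*, *Ckm* and *Myh2*) were at 0 in all 4 libraries, and the list summed to between 4.97 and 12 CPM. Of 8 myoblast genes, *Pax7* was at 0 and *Myod1*, a defining regulator of C2C12 myoblasts, had 1 read in all, while *Myf5*, another regulator of myoblast identity, had 113 to 190 reads per library. The summed level of the myoblast list was 704 and 845 CPM in the scrambled libraries, against 461 and 405 CPM in the knockdown libraries. Of its 5 tested genes, 3 fell, beside 3.22% called lower of all 8670 genes tested, namely *Cdh15* (M-cadherin) by 2.55 (SE 0.24), *Chrna1* (a subunit of the muscle acetylcholine receptor) by 1.53 (SE 0.18) and *Des* (desmin) by 0.56 (SE 0.15) on the log2 scale. Their edgeR adjusted p-values were 2.03e-06, 3.4e-05 and 0.0308, and that of *Des* was 0.266 without scrambled 2, 0.196 without knockdown 1, 0.119 without knockdown 2, 0.0526 with the replicate block and 0.208 and 0.234 in the parametric DESeq2 tests. The lower summed level of myoblast genes moved with the lower ligand and Hes/Hey reads described next, and its part in them was not tested. Fewer cells of a type and less RNA per cell cannot be told apart in these bulk libraries. Of 10 genes marking endothelial, blood, epithelial, fat and fibroblast cells, 6 were at 0 and none had enough reads for the test, with sums of 5.69 to 8.4 CPM.

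Both ligand genes had fewer reads in the knockdown. *Jag1* (ENSMUSG00000027276.8, chromosome 2, 136923373 to 136958693, reverse strand, GRCm39) had 12 and 34 reads in the scrambled libraries, against 6 and 7 reads in the knockdown libraries. *Jag2* (ENSMUSG00000002799.7, chromosome 12, 112871421 to 112893437, reverse strand) had 13 and 32 reads in the scrambled libraries, against 5 and 6 in the knockdown libraries. For each ligand, both knockdown libraries lay below both scrambled libraries, and the scrambled libraries lay further apart than the knockdown ones. Normalized counts, scaled to a common library size, were 20.3 ± 9.42 (SD, n = 2) for *Jag2* under scrambled shRNA and 6.0 ± 1.44 (SD, n = 2) in knockdown. *Jag2* fell by 1.79 on the log2 scale, to 0.289 of the scrambled level (SE 0.48, edgeR adjusted p = 0.0347). *Jag1* had 20.6 ± 11.3 normalized counts (SD, n = 2) under scrambled shRNA and 7.08 ± 1.56 (SD, n = 2) in knockdown. Its log2 fold change was -1.58 (SE 0.48), and its edgeR adjusted p of 0.0579 missed the threshold of 0.05.

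The ligand differences had the same direction in both batches. Within batch 1 the log2 ratio of knockdown to scrambled was -1.07 for *Jag1* and -1.45 for *Jag2*, and within batch 2 it was -1.81 and -1.94. Pooled over libraries, *Jag1* had 46 scrambled and 13 knockdown reads, a ratio of 0.326 after scaling (exact 95% interval 0.161 to 0.613, counting error only). The *Jag2* pools of 45 and 11 reads gave a ratio of 0.282 (exact 95% interval 0.131 to 0.553). *Jag1* and *Jag2* together made up 18.7 and 39.6 CPM in the scrambled libraries, against 7.82 and 10.8 CPM in the knockdown libraries. Both genes entered the test through their scrambled libraries, since neither had 10 reads in a knockdown library. Scrambled 2 weighed most: without it the log2 fold change was -1.19 for *Jag2* (adjusted p = 0.332) and -0.84 for *Jag1* (adjusted p = 0.539). Without knockdown 1 or knockdown 2 the adjusted p of *Jag2* was 0.306 or 0.0799, and without scrambled 1 that of *Jag1* was 0.00293. The DESeq2 tests gave *Jag2* adjusted p-values up to 0.627, and with chromosome medians removed it was 0.0510.

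Promoter entries of RefSeq (GRCm38.p6, 250 bases before to 50 after each start) were searched on both strands for TGGGAA, the core of the RBPJ site, and for CACGNG, a site of Hes and Hey repressors. CACNAG, the N box, a further site of Hes repressors, was searched in the same way. The table had entries for 7 of the 10 genes, and *Hes1*, *Hey1* and *Heyl* had none. The 30 bases around the TGGGAA and CACGNG matches of both ligands, *Notch2* and *Rbpj* are shown, since these genes had separate groups in the data, with the match in capitals.
Jag1, CACGNG, first match: gagccaggcgggCACGCGtcattgtgttac
Jag1, CACGNG, second match: cCGCGTGttgagaagaggtggccagccgga
Jag2, CACGNG: cggcgatgcgggCACGCGgctggggacgcc
Notch2, CACGNG: gaggcggaaggaCACGCGggccgcccagcc
Rbpj, TGGGAA, first match: aatgaaaaaggcTGGGAAcccgcggcgagc
Rbpj, TGGGAA, second match: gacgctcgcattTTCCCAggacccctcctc
These stretches lay in GRCm39 at chr2:136958594-136958623 and chr2:136958661-136958690 (*Jag1*, reverse strand), chr12:112893080-112893109 (*Jag2*, reverse strand), chr3:97920800-97920829 (*Notch2*, forward strand) and chr5:53747527-53747556 and chr5:53747611-53747640 (*Rbpj*, forward strand), and each reached into a stretch that GENCODE vM39 annotates as untranslated in at least 1 transcript. CACGNG was present in 27.5% of all 32851 promoter entries and in 5 of the 9 entries of the 7 genes, at 171 and 249 bases before the RefSeq start of *Jag1*, 42 before that of *Notch2*, 157 before that of *Hes6*, 204 before that of *Notch3* and 19 bases after that of *Jag2*. TGGGAA was present in 25.6% of all entries and in 2 of the 9, both of *Rbpj*, at 149 and 65 bases before the start of the entry shown. CACNAG was present in 42.5% of all entries. It was found in entries of *Hes6* (2 matches), *Notch1* (3), *Notch2* (1) and *Notch3* (2), and in no entry of *Jag1*, *Jag2* or *Rbpj*. A match of letters does not show binding, which was not measured here.

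**Figure D1:**
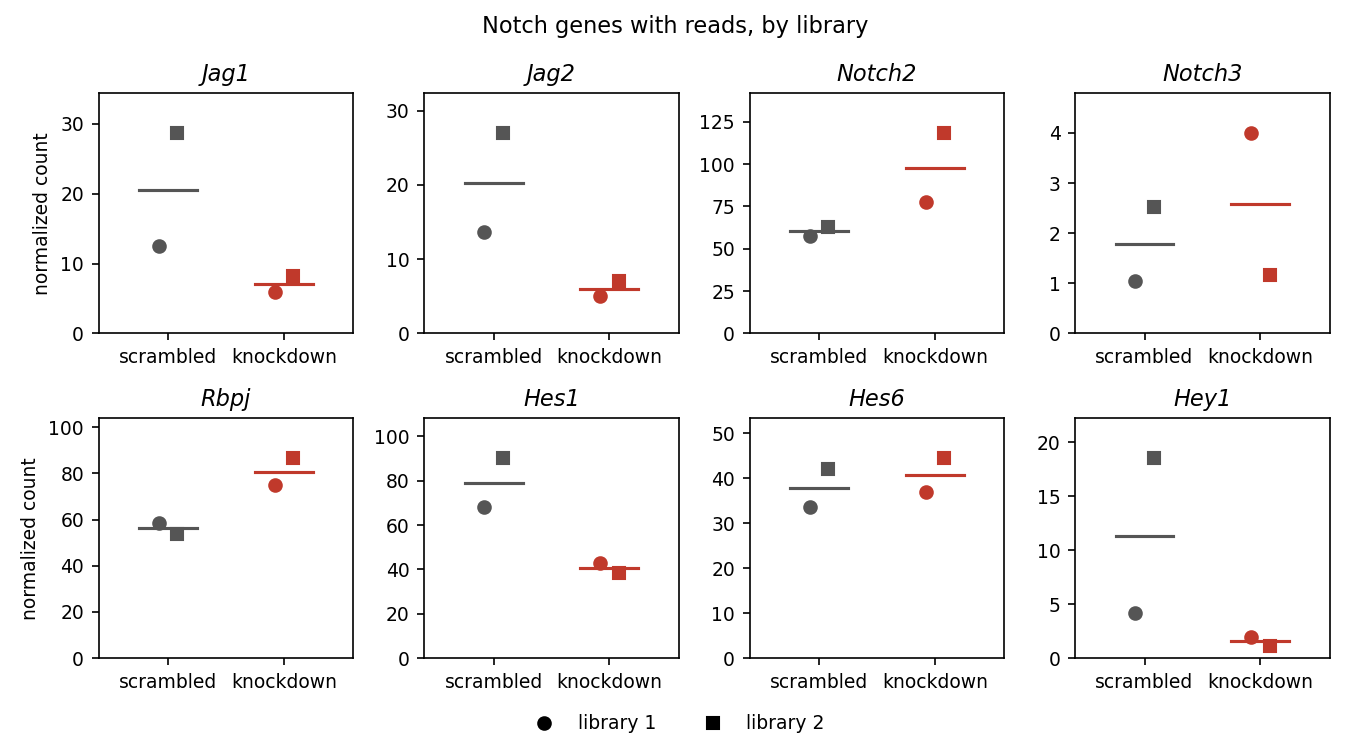
Normalized counts (vertical axes, each from 0) of the 8 genes with reads, with circles for library 1, squares for library 2 and lines for group means. Both knockdown libraries lie below both scrambled libraries for *Jag1*, *Jag2*, *Hes1* and *Hey1*, above them for *Notch2* and *Rbpj*, and overlap with them for *Notch3* and *Hes6*.

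Among the receptors, *Notch2* alone passed the filter on low counts. *Notch2* (ENSMUSG00000027878.12, chromosome 3, 97920800 to 98057677, forward strand) had 55 and 75 reads in the scrambled libraries, against 78 and 101 reads in the knockdown libraries. Its normalized counts were 57.6 and 63.2 in the scrambled and 77.8 and 118 in the knockdown libraries, with no overlap, opposite in sign to the ligands. The log2 fold change was 0.68 (SE 0.22), with log2 ratios of 0.43 in batch 1 and 0.90 in batch 2, and an edgeR adjusted p of 0.0676. It was 0.36 without knockdown 2 (adjusted p = 0.458) and 0.96 without knockdown 1. With the replicate block, which compares the libraries within each batch, the log2 fold change of *Notch2* was 0.69 and its adjusted p 0.0460, which passed the threshold. Over 16 alternative settings the adjusted p of *Notch2* lay between 0.0389 and 0.739, and 2 were under 0.05.

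*Notch3* (ENSMUSG00000038146.9, chromosome 17, 32339794 to 32385893, reverse strand) had 1 and 3 reads in the scrambled libraries, against 4 and 1 in the knockdown libraries. The groups overlapped, and the pooled 4 and 5 reads gave a ratio of 1.44 whose interval of 0.31 to 7.26 (exact, 95%) covers a fall and a rise alike (adjusted p = 0.853 in the edgeR fit without a filter). *Notch1* (ENSMUSG00000026923.16, chromosome 2, 26347915 to 26406675, reverse strand) had no read in any library. All of the last 1000 bases of its canonical transcript, the end at which direct RNA reads start, lie in exons of lncRNA genes on the opposite strand (*Gm13568* and *0610009E02Rik*), which had 0 and 1 reads in all. Of 567 protein-coding genes overlapped in this way on the opposite strand, 75.7% had reads and 26.6% had over 100, against 57.0% and 29.6% of 17784 genes with no such overlap. Of 248 genes overlapped in this way on their own strand, 10.5% had reads. The strand setting of the counting is not known, and whether the overlap bears on the reads of *Notch1* was not tested. None of the 10 Notch genes shared any of its last 1000 bases with another gene of its own strand, although 4.8% of the exonic bases of *Notch2* lie in *Gm42820* and 0.3% of those of *Jag2* in *Mir6941*, both on the same strand. The receptors summed to 41.8 and 46.8 CPM in the scrambled libraries, against 58.3 and 85.0 CPM in the knockdown libraries, not corrected for length. All receptor reads but the 9 of *Notch3* were of *Notch2*, so that the sum describes 1 gene.

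*Rbpj* (ENSMUSG00000039191.13, chromosome 5, 53623494 to 53814704, forward strand), whose product holds the nuclear complex on DNA, had 56 and 64 reads in the scrambled libraries, against 75 and 74 in the knockdown libraries. Its normalized counts of 56.3 ± 3.39 (SD, n = 2) under scrambled shRNA and 80.7 ± 8.33 (SD, n = 2) in knockdown did not overlap. The log2 fold change of 0.52 (SE 0.20) had an edgeR adjusted p of 0.141. Genes of chromosome 5 had a median log2 fold change of 0.23 over 555 tested genes, and the value of *Rbpj* with the chromosome medians removed was 0.29.

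Among the Hes and Hey genes, *Hes1* fell. *Hes1* (ENSMUSG00000022528.9, chromosome 16, 29882134 to 29886643, forward strand), the repressor through which Notch is best known to act in many tissues, had 65 and 107 reads in the scrambled libraries, against 43 and 33 in the knockdown libraries. Both knockdown libraries lay below both scrambled libraries. Normalized counts were 79.1 ± 15.5 (SD, n = 2) under scrambled shRNA and 40.7 ± 3.02 (SD, n = 2) in knockdown. *Hes1* fell by 0.96 on the log2 scale, to 0.513 of the scrambled level (SE 0.23, edgeR adjusted p = 0.0161). Its log2 ratio was -0.67 within batch 1 and -1.22 within batch 2. The 289 tested genes of chromosome 16 had a median log2 fold change of 0.30, and the value of *Hes1* with chromosome medians removed was -1.26. The call was lost without scrambled 2 (adjusted p = 0.173), without knockdown 1 (0.187) and without knockdown 2 (0.0764), and in the DESeq2 tests, where the adjusted p lay up to 0.402.

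*Hey1* (ENSMUSG00000040289.9, chromosome 3, 8726956 to 8732385, reverse strand), a repressor related to *Hes1*, had 4 and 22 reads in the scrambled libraries, against 2 and 1 in the knockdown libraries. The knockdown libraries lay below both scrambled ones, but most scrambled reads came from scrambled 2. Pooled, 26 scrambled and 3 knockdown reads gave a ratio of 0.133 (exact 95% interval 0.0258 to 0.434, counting error only), and without scrambled 2 the ratio was 0.385. *Hey1* did not pass the filter on low counts. In the edgeR fit without that filter its log2 fold change was -2.80 (adjusted p = 0.00365), at a mean count under the 10 asked of a call, and the DESeq2 likelihood-ratio tests gave adjusted p-values of 0.268 and 0.601. An exact permutation test of 2 against 2 libraries cannot give a p below 0.333. *Heyl* (ENSMUSG00000032744.5, chromosome 4, 123127349 to 123143682, forward strand), a Hey family member, had no read in any library.

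*Hes6* (ENSMUSG00000067071.9, chromosome 1, 91339204 to 91342103, reverse strand) differs from the others in that its product is known to inhibit HES1 and to promote differentiation. It had 32 and 50 reads in the scrambled libraries, against 37 and 38 in the knockdown libraries, and the normalized counts overlapped. Its log2 fold change was 0.09 (SE 0.27, edgeR adjusted p = 0.889), with a sign that turned when scrambled 1 or knockdown 2 was left out or the chromosome medians were removed (-0.11). The 4 Hes and Hey genes together had 75.4 and 107 CPM in the scrambled libraries, against 58.3 and 60.0 CPM in the knockdown libraries. All 10 genes together made up 178 and 232 CPM in the scrambled libraries, against 178 and 218 CPM in the knockdown libraries. The sum over the 10 genes thus overlapped between groups, with fewer reads of ligands, *Hes1* and *Hey1* beside more of *Notch2* and *Rbpj* in the knockdown.

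**Figure D2:**
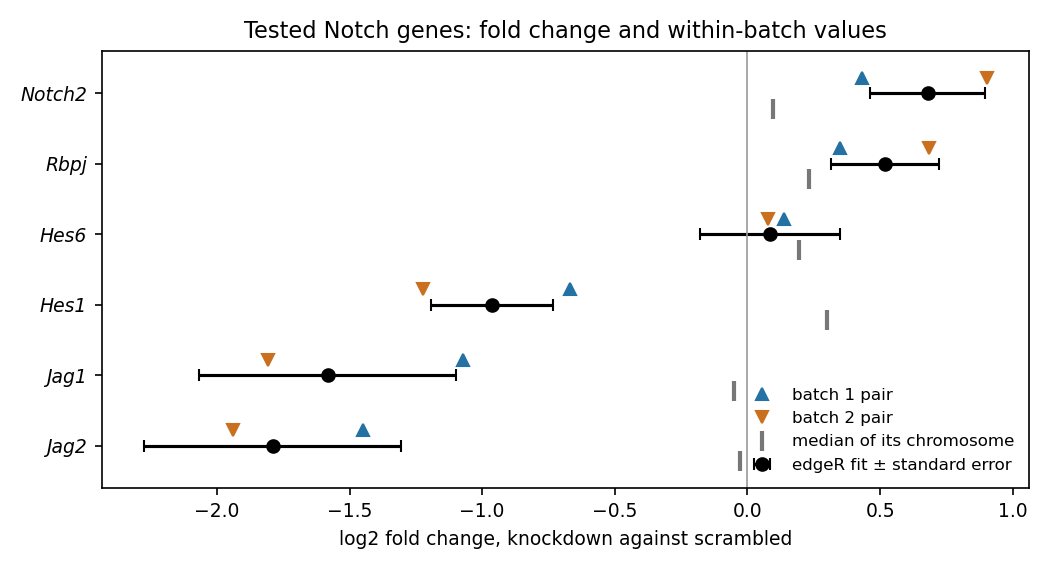
Log2 fold change, knockdown against scrambled (horizontal axis), of the 6 tested genes, with circles and bars for the edgeR estimate and its standard error, triangles for the ratio within each batch and grey ticks for the median of the chromosome. The within-batch values of each gene share 1 sign, with *Jag2* from -1.94 to -1.45, *Hes1* from -1.22 to -0.67 and *Notch2* from 0.43 to 0.90.

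A gene was called when its edgeR adjusted p was under 0.05, its log2 fold change over 0.5 in size and its mean normalized count over 10. Of the 6 tested Notch genes, 2 (*Jag2* and *Hes1*) were called lower, beside 3.22% of the 8670 genes tested. With at least 10 counts in every library, which leaves out *Jag1* and *Jag2*, *Hes1* was the 1 gene called. None was called higher by edgeR without the replicate block and with the filter, beside 2.33% of all tested genes, while *Notch2* was called higher with the block or without the filter. In the former fit 2 (*Notch2* and *Rbpj*) had an unadjusted p under 0.05 and a higher value. DESeq2 called none of the 6 in either direction in any of its 4 configurations, with an unadjusted p under 0.05 for 2 to 4 of them. The groups were separated, with no overlap of normalized counts, for 3 genes lower in the knockdown (*Jag1*, *Jag2* and *Hes1*) and 2 higher (*Notch2* and *Rbpj*), beside 26.0% of all tested genes on the lower and 26.4% on the higher side. Without *Jag1* and *Jag2*, which passed the filter through their scrambled libraries alone, 1 of 4 genes was separated lower and 2 higher. The median log2 fold change was -0.44 over the 6 genes and 0.30 over these 4, so that its sign rests on the ligands, and that of all tested genes was -0.00059. These counts describe genes picked by name, and nothing was read from them beyond the values of each gene.

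The plot of fold changes under other settings shows the direction of *Jag1*, *Jag2*, *Hes1*, *Notch2* and *Rbpj* kept under every setting that was run, while *Hes6* crossed 0. Adjusted p was under 0.05 in 9 of 16 alternatives for *Hes1*, in 7 of 15 for *Jag2* and in 2 of 15 for *Jag1*. It was under 0.05 in none of 16 for *Rbpj*, whose adjusted p lay between 0.129 and 0.978.

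**Figure D3:**
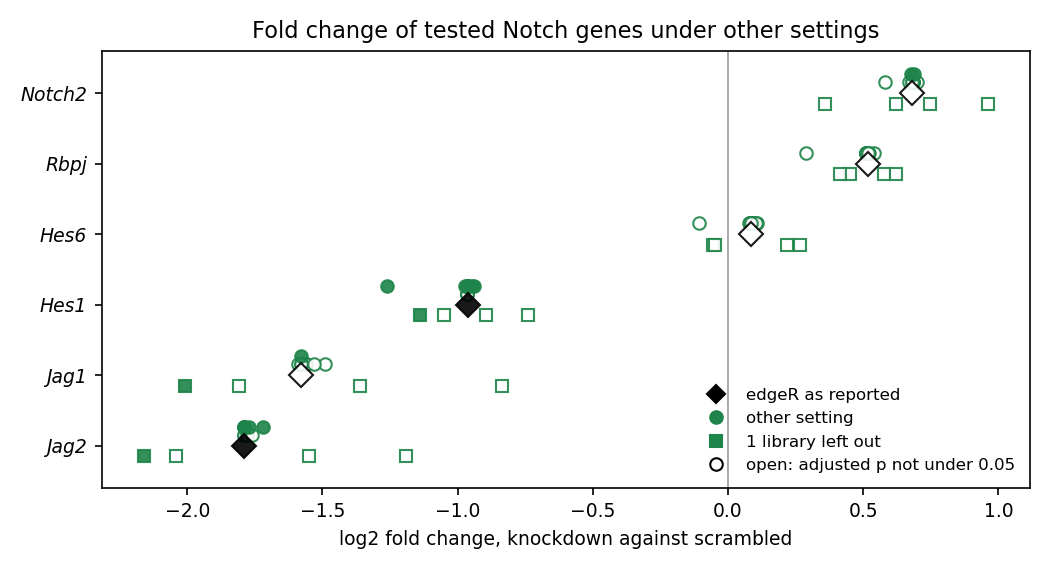
Log2 fold change, knockdown against scrambled (horizontal axis), of the 6 tested genes as reported (diamonds), under other settings (circles) and with 1 library left out (squares), filled where the adjusted p was under 0.05. *Jag1* spread from -2.01 to -0.84 and *Jag2* from -2.16 to -1.19 when single libraries were left out.

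The remaining genes of the pathway were taken as 4 lists of 68 genes in all, of which 10 had no read and 40 were tested. In these lists 2 of the 40 tested genes fell and none rose in the edgeR test, beside 3.22% called lower and 2.33% called higher of all genes tested, and nothing is read from these counts about the lists. In the same test 5 genes with a lower and 5 with a higher value had an unadjusted p under 0.05. With chromosome medians removed, and with at least 10 counts in every library, 1 was called higher. The DESeq2 tests also called *Fhl1* and *Dtx4*, in all 4 configurations, and no other gene of these lists. The median log2 fold change of the 40 genes was 0.01. Of the other receptors and ligands (*Notch4*, *Dll1*, *Dll3*, *Dll4*, *Dlk1*, *Dlk2* and *Dner*), none had more than 3 reads in a library, and none passed the filter.

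Among 24 nuclear partners of RBPJ, 16 were tested and *Fhl1* fell. *Fhl1* encodes a LIM-domain protein of muscle, and a shorter isoform of it is known to bind RBPJ, but isoforms were not separated in counts per gene. Its reads were 376 and 414 in the scrambled libraries, against 45 and 51 in the knockdown libraries, far apart between groups. *Fhl1* fell by 2.83 on the log2 scale (SE 0.18, edgeR adjusted p = 1.53e-08), and its adjusted p stayed under 0.05 in each alternative run. The median of the 16 genes was -0.03. Of the other 15, 3 with a higher value (*Maml1*, *Tle1* and *Tle5*) and 2 with a lower one (*Ctbp2* and *Tle3*) had an unadjusted p under 0.05 in edgeR, with adjusted p-values from 0.131 (*Ctbp2*) to 0.218 (*Tle3*).

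Among 27 genes for receptor processing, glycosylation and turnover, 21 were tested and *Dtx4* fell. *Dtx4* encodes a Deltex E3 ubiquitin ligase, a family that acts on Notch receptors. It had 45 and 72 reads in the scrambled libraries and 12 reads in each knockdown library. *Dtx4* fell by 2.06 on the log2 scale (SE 0.32, edgeR adjusted p = 6.34e-04), and without knockdown 1 its adjusted p was 0.106. *Lfng*, a fringe glycosyltransferase that alters which ligands Notch responds to, had 11 and 20 reads in the scrambled libraries, against 29 and 27 in the knockdown libraries. The *Lfng* groups did not overlap, but its log2 fold change of 1.06 (SE 0.34) had an edgeR adjusted p of 0.0754. *Megf10* (log2 fold change 0.52, edgeR adjusted p = 0.0851) and *Furin*, the gene of a protease that cuts Notch receptors during their maturation (log2 fold change -0.54, edgeR adjusted p = 0.104), also had an unadjusted p under 0.05 without passing.

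Of 10 further target genes, 6 had no read, *Hes5*, *Hes7* and *Nrarp* among them, and 3 were tested (*Myc*, *Ccnd1* and *Cdkn1a*). None passed the edgeR test or had an unadjusted p under 0.05, and none was called by DESeq2. *Cdkn1a*, which encodes the cell cycle inhibitor p21, had the smallest p of the 3. It had 426 and 442 reads in the scrambled libraries, against 463 and 320 in the knockdown libraries (log2 fold change 0.04, adjusted p = 0.923).

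**Figure D4:**
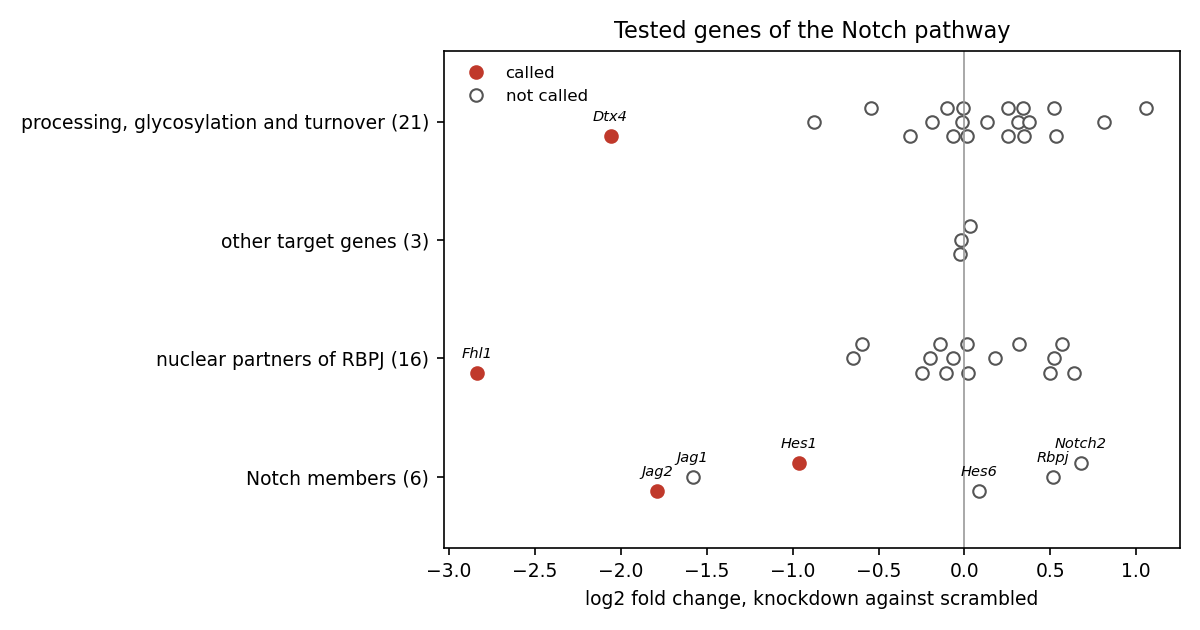
Log2 fold change, knockdown against scrambled (horizontal axis), of the tested genes of each list, 1 point per gene, filled red where called (number tested in parentheses). The called genes *Fhl1*, *Dtx4*, *Jag2* and *Hes1* lie below 0, beside 3.22% called lower and 2.33% called higher of all 8670 genes tested. *Jag2* passed the filter on low counts through its scrambled libraries alone.

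Because hnRNP L favours CA-rich RNA, the canonical transcripts of the 10 genes were searched for ACACACA in the sense strand. It was found in 6 of them (*Notch1*, *Notch2*, *Jag1*, *Hes6*, *Hey1* and *Heyl*), 3 times in *Notch2* and once in each of the others, and of the 6 tested genes in 3, beside 34.1% of all 8662 tested genes with a canonical transcript. The called genes, *Jag2* and *Hes1*, did not hold it, while *Jag1* and *Hey1*, lower without a call, did. Introns were not searched. The longest CA tract of *Jag2* and *Hes1*, 6 bases, was matched or exceeded in 71.7% of the tested genes. The 30 bases around the longest CA tract, in capitals, of the called genes and of *Jag1* and *Notch2* are shown for comparison.
Hes1: gggcctgcggatCACACAggatctggagct
Jag2: gggccgcacctgCACACAtaacaccaatga
Jag1: caaaaatcaggACACACAactcggaagtgg
Notch2: ctgccccagtgCACACACAgcatgcgctgt
In GRCm39 the *Hes1* stretch lay at chr16:29884149-29884178 (forward strand, exon 1 of 4, 5′ untranslated). That of *Jag1* lay at chr2:136925132-136925161 (reverse strand, coding part of exon 26 of 26) and that of *Notch2* at chr3:98053910-98053939 (forward strand, coding part of exon 34 of 34). The *Jag2* stretch crossed an exon junction between 112876331 and 112876804 of chromosome 12 (reverse strand), with its tract in the coding part of exon 18 of 26. Transcripts differ in length, which bears on how often such letters occur, and binding was not measured here.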

How the data were processed

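The 4 libraries were made by the authors from total RNA, sequenced as direct RNA, mapped to GRCm39 with minimap2 2.17 and counted per gene with HTSeq 0.9.1. The deposited values are whole counts for 56748 gene IDs and were used as deposited. The annotation release and strand setting of the counting are not given in the sources used here. GENCODE vM39 gave symbols for 56017 IDs. Reads assigned to no gene, 42.2% to 43.5% per library, stayed out of library sizes and tests; 22.7% to 23.8% were of low mapping quality and 16.0% to 16.5% ambiguous.

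Differences between the groups were tested with edgeR 4.0.16 under R 4.3.3 (TMM, filterByExpr, quasi-likelihood test, Benjamini-Hochberg over the 8670 genes tested). Normalized counts are TMM-scaled to the mean library size. Genes with few reads were compared by pooled reads with exact conditional (Clopper-Pearson) 95% intervals, which cover counting error only, and the chi-square per gene between libraries of a group was 2.62 and 2.92, where counting error alone gives 1. The members and lists were chosen with earlier results of these data known. The genes named are the 10 members, *Hnrnpl*, every called pathway gene and the tested gene with the smallest p of each list. Other genes were named after their values were seen, as were the letters searched in promoters and transcripts. The labels give a replicate number per batch, and deviations of the libraries numbered 1 correlated at 0.003 over 4501 genes. Alternatives were DESeq2 1.42.0 (Wald and likelihood-ratio tests, local and parametric fits), other scaling factors, filters and thresholds, the robust fit, the replicate block, removal of mitochondrial genes and *Rn18s* or of chromosome medians, and each library left out. The scripts were tested on simulated data. Transcript counts and qPCR were not analysed here.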

Additional observations from a re-analysis of the deposited data

How the results depend on the processing

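The 481 calls over all genes became 228, 115, 222 and 112 with the DESeq2 Wald local, Wald parametric, likelihood-ratio local and likelihood-ratio parametric tests, 285 with chromosome medians removed and 772 at an adjusted p under 0.1, and 20 (without knockdown 1) to 444 when single libraries were left out. The 2 called Notch genes became 4 without a filter on low counts, 1 with at least 10 counts in every library (which leaves out *Jag1* and *Jag2*), 1 with chromosome medians removed (*Jag2* was lost) and 4 at an adjusted p under 0.1, and 0 (without scrambled 2, knockdown 1 or knockdown 2) to 3 when single libraries were left out. In each of the 4 DESeq2 configurations 0 were called, with an unadjusted p under 0.05 for 4 of the 6 in both local fits and 2 in both parametric fits. With the replicate block 3 Notch genes were called, *Notch2* being the one gained. The 2 other pathway genes called became 4 at an adjusted p under 0.1 and 1 (without knockdown 1) to 3 when single libraries were left out.

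For *Hes6* the log2 fold change was -0.107 with chromosome medians removed and lay between -0.0569 and 0.266 with 1 library left out. The pooled ratio of *Notch3* lay between 0.626 (without knockdown 1) and 2.57. The other tested Notch genes kept their sign in every alternative run. The cause of these shifts was not tested, apart from the lists of genes and libraries that an alternative leaves out. At 1229424 to 1676911 counted reads per library, *Notch1*, *Notch3*, *Hey1* and *Heyl* did not pass the filter on low counts.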
